A study of Mus musculus with 8 samples.

Results

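The megakaryocyte and platelet genes described here are Pf4, Ppbp, Itga2b, Itgb3, Gp1bb, Gp9, Gp5, Vwf and Selp, 9 of the 29955 gene names in the RNA-seq data. They were chosen by symbol as receptor and granule genes of the lineage, and all 9 were found. RNA was sequenced from bone marrow LSK cells (Lin- Sca1+ Kit+, the gate that holds stem cells and multipotent progenitors) and LK cells (Lin- Kit+ in the labels and also Sca1- in the study, mostly myeloid progenitors) of wild-type (WT) and Ripk3-/- (knockout) mice, with 2 libraries in each of 4 groups. Ripk3 is a kinase of the necroptosis pathway, and the comparison of genotypes asks what its loss does to gene expression in these cells.

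The strain of both genotypes is CD57BL6/J in the sample labels and C57BL/6J in the study. The labels state that no treatment was given, whereas the study describes fractionated X-ray exposure with collection a month after the last dose, so that the treatment shared by the 4 groups is not settled here. Age is not given in the labels, nor whether animals were pooled or whether replicates came from separate mice, and p-values then measure only the spread between these libraries. The lineage antibodies (CD3, B220, Gr-1, CD11b and Ter119) include none against a platelet or megakaryocyte antigen.

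Megakaryocytes are the large marrow cells that shed platelets. They arise from stem cells through progenitors of the LK gate or by a more direct route from stem cells that already carry platelet transcripts, under the control of thrombopoietin and transcription factors of the GATA, ETS and NF-E2 families. Their products work together in clotting: a glycoprotein complex binds von Willebrand factor on damaged vessels, an integrin pair binds fibrinogen, and granules release chemokines and adhesion proteins.

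Sequencing depth by replicate was 9782166 and 9825593 reads for WT LSK, 12657237 and 10164743 for knockout LSK, 15680931 and 13113942 for WT LK, and 14628031 and 16280811 for knockout LK cells. Values are called signal, which is reads scaled to library size (CPM) within LSK or within LK cells, with no division by gene length. The floor of 3 reads lay at 0.186 to 0.311 signal and covers counting error only. The targeted gene followed the labels, with a Ripk3 signal by replicate of 162 and 168 (WT) against 3.38 and 1.08 (knockout) in LSK cells, and of 144 and 150 against 16.2 and 10.6 in LK cells. Ly6a, which encodes the sort marker Sca1, was at 141 to 237 in LSK and 0.124 to 4.12 in LK libraries, and Kit was at 223 to 464 over all 8 libraries. The X-linked Xist was at 108 to 413 in WT and 0 to 1.27 in knockout libraries, while the Y-linked Eif2s3y was at 0 in each WT library and at 47.0 to 98.8 in the knockout libraries. Genotype and sex of the mice cannot be told apart in any comparison of genotypes below.

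Promoters are shown for the 4 genes that differed between LSK and LK cells (below), since these moved in both directions although they belong to one lineage. The sequences are from RefSeq on GRCm38.p6, which had an entry for 7 of the 9 genes, and run from 250 bases before to 50 bases after the gene start, 5' to 3' on the gene's strand. Capitals mark the GATA motifs AGATAA and TGATAA and the ETS motifs AGGAAG and CGGAAG, searched on both strands.
Pf4 (chr5:90772185-90772484, plus strand): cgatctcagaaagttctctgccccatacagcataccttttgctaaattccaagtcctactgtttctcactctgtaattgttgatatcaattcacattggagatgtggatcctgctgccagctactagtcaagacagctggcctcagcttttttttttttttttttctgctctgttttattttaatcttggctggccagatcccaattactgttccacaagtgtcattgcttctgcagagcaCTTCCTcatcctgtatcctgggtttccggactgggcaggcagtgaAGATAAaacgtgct
Itga2b (chr11:102469834-102470133, minus strand): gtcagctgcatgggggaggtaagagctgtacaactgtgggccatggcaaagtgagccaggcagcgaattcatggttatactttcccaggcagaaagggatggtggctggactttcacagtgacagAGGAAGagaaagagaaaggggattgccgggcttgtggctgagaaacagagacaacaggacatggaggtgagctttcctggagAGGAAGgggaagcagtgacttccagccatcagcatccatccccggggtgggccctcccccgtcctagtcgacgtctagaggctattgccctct
Gp5 (chr16:30310732-30311031, minus strand): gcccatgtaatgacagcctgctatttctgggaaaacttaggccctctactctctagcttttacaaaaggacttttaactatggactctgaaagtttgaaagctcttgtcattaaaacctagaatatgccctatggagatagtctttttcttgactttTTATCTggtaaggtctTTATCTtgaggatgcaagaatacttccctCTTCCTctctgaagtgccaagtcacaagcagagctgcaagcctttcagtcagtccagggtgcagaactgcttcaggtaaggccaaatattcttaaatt
Gp9 (chr6:87777820-87778119, plus strand): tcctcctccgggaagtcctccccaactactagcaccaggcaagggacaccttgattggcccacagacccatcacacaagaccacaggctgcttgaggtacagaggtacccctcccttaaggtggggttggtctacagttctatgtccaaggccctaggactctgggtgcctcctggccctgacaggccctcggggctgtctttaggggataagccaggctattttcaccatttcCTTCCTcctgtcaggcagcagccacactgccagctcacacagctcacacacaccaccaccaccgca
The Pf4 window held an ETS motif starting 9 bases before and a GATA motif starting 36 bases after the gene start. The Gp5 window held 2 GATA motifs, 93 and 77 bases before the start, and 1 ETS motif 48 bases before it. The Itga2b window held 2 ETS motifs, 125 and 43 bases before the start, and the Gp9 window held 1, at 16 bases before it, and these letters of the GATA motifs are in neither window. All distances count from the RefSeq start, which for Itga2b lies inside the GENCODE gene printed below, so that by GENCODE nearly all of its window and both motifs are within the gene. Among all 32851 promoters of this length, AGATAA was in 11.2%, TGATAA in 9.05%, AGGAAG in 35.4% and CGGAAG in 16.9%. An ETS motif was in 6 and a GATA motif in 2 of the 7 windows, against 46.5% and 18.6% of all promoters. A match describes letters and not a bound site.

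None of the 9 genes passed the test between genotypes in LSK or in LK cells. Genes were tested with limma on log2(signal + 1), where changes of low genes come out too small, and called at a Benjamini-Hochberg adjusted p under 0.05 over all genes tested. All 9 had a mean signal of at least 1 in both populations and so were tested. In LSK cells limma called 0 of 9, against 363 of 16817 genes tested (2.16%). At an unadjusted p under 0.05 the count was 2 of 9 (Pf4 and Gp5), against 17.9% of all genes, and edgeR and DESeq2 on the recovered reads called 0 of 9 each, against 1.24% and 3.74%.

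**Figure D1:**
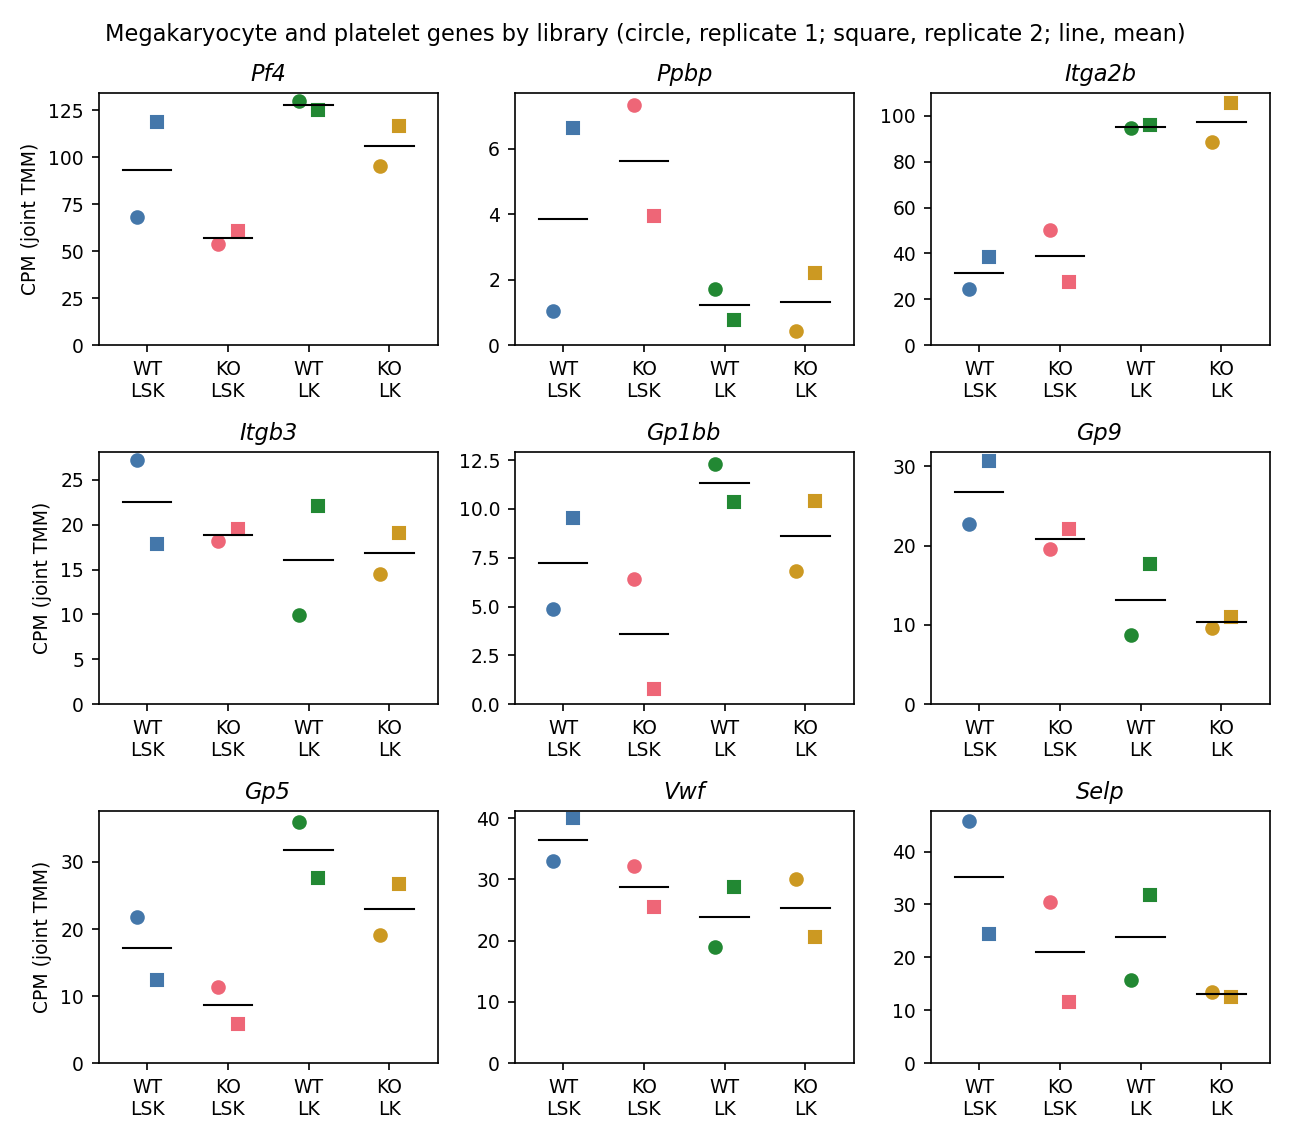
Level of each gene in the 8 libraries, as CPM scaled over all libraries together (vertical axes from 0, a separate range for each gene), with circles for replicate 1, squares for replicate 2, a line at the group mean, and KO for Ripk3-/-. Itga2b was at 24.4 to 50.4 CPM in the LSK and 88.8 to 106 CPM in the LK libraries, while Gp9 was at 19.5 to 30.6 CPM in the LSK and 8.67 to 17.7 CPM in the LK libraries.

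Of the granule chemokines, Pf4 (platelet factor 4, chromosome 5 of GRCm38, 90772435 to 90773383) gave a signal of 77.6 and 135 in the 2 WT LSK libraries, and 60.6 and 69.2 in the knockouts. Both knockout libraries lay below both WT libraries, but the WT replicates were farther apart than the lower of them was from the knockouts. Pf4 had a log2 fold change of -0.65 (SE 0.25, 95% confidence interval -1.18 to -0.13, limma adjusted p = 0.178), which ran from -1.05 to -0.26 over the alternatives, the last without WT LSK replicate 2. In bulk samples such as these, fewer cells of a type and less RNA per cell cannot be told apart. Ppbp (pro-platelet basic protein, chromosome 5, 90768518 to 90770063) ends 2371 bases before Pf4 on the same strand and had few reads, 12 and 73 for WT LSK and 103 and 46 for knockout LSK cells. Its signal was 1.19 and 7.56 (WT) against 8.28 and 4.50 (knockout), so that the genotypes overlapped, with a log2 fold change of 0.72 (SE 0.71, limma adjusted p = 0.628).

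The receptor for von Willebrand factor is a complex of glycoproteins Ib, IX and V. Gp5, which encodes glycoprotein V (chromosome 16, 30307685 to 30310779), gave 24.8 and 14.2 for WT LSK against 12.8 and 6.75 for knockout LSK cells, a log2 fold change of -0.94 (SE 0.43, limma adjusted p = 0.256; -1.35 to -0.52 over the alternatives). Gp9, which encodes glycoprotein IX (chromosome 6, 87778072 to 87779768), gave 25.9 and 34.9 against 22.0 and 25.2, a log2 fold change of -0.34 (SE 0.43, limma adjusted p = 0.717; -0.57 to -0.13 over the alternatives). The knockout libraries were the lower ones for both genes, and neither difference passed the test. Gp1bb, which encodes the beta chain of glycoprotein Ib (chromosome 16, 18620317 to 18622403), gave 5.56 and 10.9 against 7.23 and 0.880, the last from 9 reads, a log2 fold change of -1.17 (SE 0.65, limma adjusted p = 0.348), which ran from -2.23 without knockout LSK replicate 1 to -0.10 without knockout LSK replicate 2. Its exons share 1902 of 2087 bases with Sept5 on the same strand, so that the assignment of its reads is uncertain. Gp1ba, which encodes the alpha chain and is not among the 9 genes, had 23 and 3 reads for WT LSK and 51 and 116 for knockout LSK cells, a log2 fold change of 1.94 (SE 0.74, limma adjusted p = 0.171). For Gp1ba, WT LSK replicate 2 lay at the floor of 3 reads, so that the size of this difference is uncertain.

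The fibrinogen receptor is an integrin of the alpha chain Itga2b (CD41, chromosome 11, 102453297 to 102470122) and the beta chain Itgb3 (chromosome 11, 104608000 to 104670476). Itga2b gave 27.8 and 43.9 for WT LSK against 56.8 and 31.7 for knockout LSK cells, a log2 fold change of 0.27 (SE 0.30, limma adjusted p = 0.666). Itgb3 gave 31.0 and 20.3 against 20.5 and 22.3, a log2 fold change of -0.22 (SE 0.43, limma adjusted p = 0.826). For both chains the genotypes overlapped.

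Of the adhesion proteins stored in granules, Vwf (von Willebrand factor, chromosome 6, 125546774 to 125686679), a gene also used to mark platelet-biased stem cells, gave 37.5 and 45.6 for WT LSK against 36.3 and 29.0 for knockout LSK cells, a log2 fold change of -0.34 (SE 0.35, limma adjusted p = 0.643; -0.56 to -0.19 over the alternatives). Selp (P-selectin, which tethers leukocytes to activated platelets, chromosome 1, 164115264 to 164150026) gave 52.2 and 27.9 against 34.5 and 13.2, a log2 fold change of -0.80 (SE 0.46, limma adjusted p = 0.367), which ran from -1.46 without knockout LSK replicate 1 to -0.14 without knockout LSK replicate 2. The genotypes did not overlap for Vwf and overlapped for Selp. Genes on the opposite strand cover 186 and 438 bases of the Selp exons, and whether the counting used strand is not given in the sources used here.

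Over the 9 genes, 7 had a log2 fold change below 0 in LSK cells, with a median of -0.34 (-0.57 to -0.19 over the alternatives), beside 50.6% of genes below 0 and a median of -0.01 over all genes tested. Both knockout LSK libraries were below both WT LSK libraries for 4 of 9 genes (Pf4, Gp5, Gp9 and Vwf), against 23.2% of all genes, and above them for 0 of 9, against 21.4%. The 95% confidence intervals reached from 0.53 (Pf4) to 1.48 (Ppbp) to either side of the log2 fold change. With 2 libraries a group, exact permutation of a single gene reaches no two-sided p below 0.333.

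In LK cells limma called 0 of 9 genes, against 66 of 13949 tested (0.473%). The count was also 0 of 9 at an unadjusted p under 0.05, against 6.56% of all genes, 0 of 9 with edgeR (0.373% of all genes) and 0 of 8 with DESeq2 (1.48%), which gave Ppbp no adjusted p. Pf4 gave a signal of 114 and 111 for WT LK against 84.0 and 102 for knockout LK cells, a log2 fold change of -0.28 (SE 0.25, limma adjusted p = 0.910), which ran from -0.42 to -0.14 over the alternatives. Gp5 gave 31.6 and 24.5 against 16.8 and 23.3, a log2 fold change of -0.47 (SE 0.43, limma adjusted p = 0.919), which ran from -0.70 to -0.24. Both knockout libraries were again the lower ones for these genes. Selp gave 13.8 and 28.2 for WT LK against 11.9 and 11.0 for knockout LK cells, a log2 fold change of -0.74 (SE 0.46, limma adjusted p = 0.859), and of -0.25 without WT LK replicate 2, the 1 high library. Itga2b gave 83.0 and 85.2 against 78.2 and 92.3, a log2 fold change of 0.01 with a 95% confidence interval of -0.60 to 0.63.

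The other 5 genes had log2 fold changes from -0.38 (Gp1bb, -0.64 to -0.12 over the alternatives) to 0.14 (Itgb3) in LK cells. Their signal over the 4 LK libraries was 6.02 to 10.8 for Gp1bb, 7.61 to 15.6 for Gp9, 8.76 to 19.5 for Itgb3, 16.6 to 26.4 for Vwf and 0.380 to 1.92 for Ppbp, the last from 6 to 31 reads. Over the 9 genes, 6 were below 0 with a median of -0.26 (-0.38 to -0.14 over the alternatives), beside 49.0% and a median of 0.01 over all genes. Both knockout LK libraries were below both WT LK libraries for 4 of 9 genes (Pf4, Gp5, Gp1bb and Selp), against 19.9% of all genes, and above them for 0 of 9, against 20.1%.

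**Figure D2:**
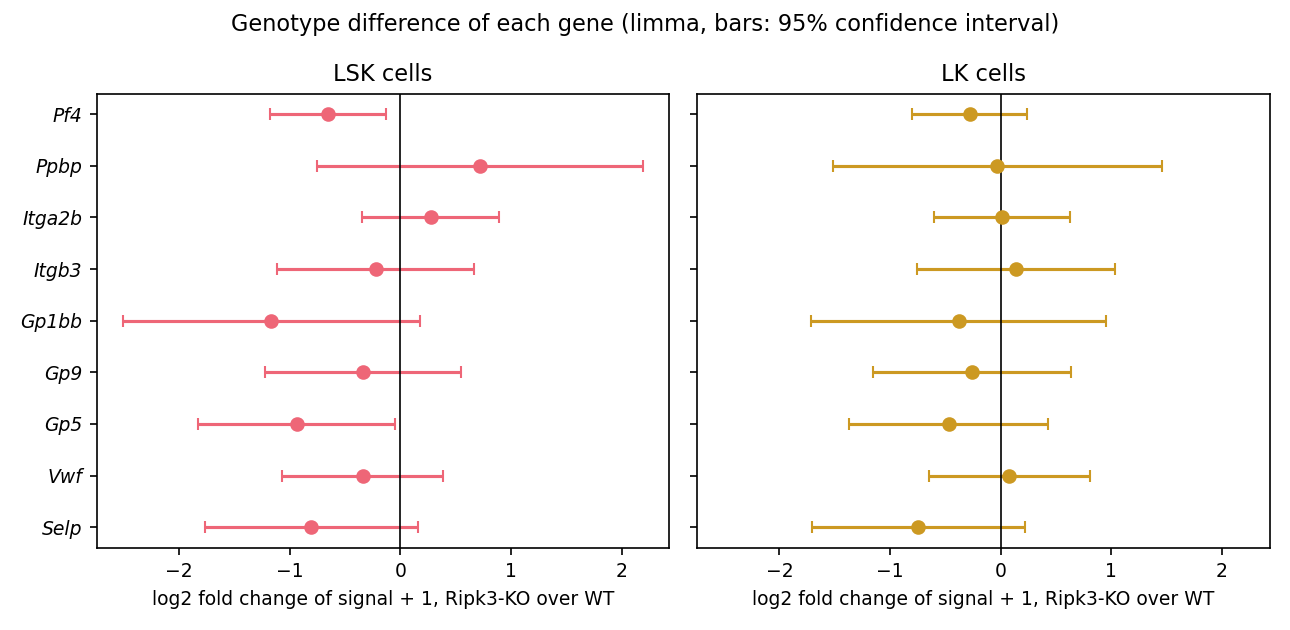
Log2 fold change of signal + 1 (Ripk3-/- over WT, written KO on the axis) for each gene in LSK and LK cells, with 95% confidence intervals from limma over 2 libraries per group. The intervals of Pf4 (-1.18 to -0.13) and Gp5 (-1.83 to -0.04) in LSK cells end below 0 before adjustment over all genes, and all others contain 0.

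Whether the genotype difference itself differed between the populations was tested as the log2 fold change in LSK minus that in LK cells. Limma called 0 of 9 genes, against 57 of 15901 (0.358%), and 0 of 9 passed an unadjusted p under 0.05, against 10.1%. The counts were 0 of 9 with edgeR (0.264% of all genes) and 0 of 9 with DESeq2 (0.968%). The differences ran from -0.78 for Gp1bb to 0.75 for Ppbp, the genes with the fewest reads, and the one of Pf4 was -0.37 (SE 0.36, limma adjusted p = 0.747).

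LSK and LK cells differed in 4 of the 9 genes, in both directions. For this comparison the reads were scaled over all 8 libraries together and are given as CPM, tested as log2(CPM + 1). By limma 3 of 9 genes (Itga2b, Gp5 and Pf4) were lower in LSK cells, against 3187 of 15757 genes tested (20.2%), and 1 of 9 (Gp9) was higher, against 2164 (13.7%). EdgeR and DESeq2 called the same 4 genes, against 29.8% and 33.7% of all genes. With 9 genes these counts lie near the shares of all genes and are no result about the group as a whole.

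Itga2b was at 24.4, 27.7, 38.6 and 50.4 CPM in the LSK libraries and at 88.8, 94.6, 96.1 and 106 CPM in the LK libraries. Every LSK library lay below every LK library, with a log2 fold change of -1.48 (SE 0.21, limma adjusted p = 9.5e-06). Its partner Itgb3 was at 17.8 to 27.2 CPM in LSK and 9.99 to 22.0 CPM in LK libraries. The log2 fold change of Itgb3 was 0.35 (SE 0.30, limma adjusted p = 0.389), and ran from 0.083 to 0.70 over the alternatives. The alpha chain of the fibrinogen receptor thus passed the test and the beta chain did not.

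Gp9 was at 19.5, 22.1, 22.7 and 30.6 CPM in the LSK libraries and at 8.67, 9.65, 11.0 and 17.7 CPM in the LK libraries, with a log2 fold change of 0.99 (SE 0.30, limma adjusted p = 0.0150). Gp5 went the other way, with 5.90, 11.3, 12.5 and 21.8 CPM in the LSK and 19.1, 26.8, 27.6 and 36.0 CPM in the LK libraries, and a log2 fold change of -1.13 (SE 0.31, limma adjusted p = 0.00638). The populations did not overlap for Gp9, while WT LSK replicate 1 had more Gp5 than the lowest LK library. Gp1bb was at 0.770 to 9.55 CPM in LSK and 6.84 to 12.3 CPM in LK libraries, with a log2 fold change of -1.01 (SE 0.45, limma adjusted p = 0.0856). Genes of one receptor complex thus lay on opposite sides, Gp9 higher and Gp5 lower in LSK cells. The Gp9 call was lost without WT LK replicate 1 (log2 fold change 0.75, limma adjusted p = 0.0926) and without WT LSK replicate 2 (0.88, limma adjusted p = 0.0559), and over all alternatives its adjusted p ran from 0.00191 to 0.138. Gp1bb passed without knockout LSK replicate 1 (-1.53, limma adjusted p = 0.0101), while without knockout LSK replicate 2 its log2 fold change was -0.50 and its highest adjusted p over all alternatives was 0.477.

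Pf4 was at 53.7, 60.6, 68.1 and 119 CPM in the LSK libraries and at 95.4, 117, 125 and 130 CPM in the LK libraries, with a log2 fold change of -0.69 (SE 0.18, limma adjusted p = 0.00462). Of the LSK libraries, WT LSK replicate 2 alone reached the LK range. With the scaling of the deposited values, made within each population, the log2 fold change of Pf4 was -0.32 and its call was lost, as was that of Gp5 (-0.78). Ppbp, the neighbor of Pf4 on the chromosome, was at 1.05 to 7.34 CPM in LSK and 0.432 to 2.21 CPM in LK libraries, with a log2 fold change of 1.22 (SE 0.50, limma adjusted p = 0.0642). Without WT LSK replicate 1, its low LSK library, Ppbp passed (1.69, limma adjusted p = 0.0174), and over all alternatives its log2 fold change was at least 0.64 and its adjusted p at most 0.437.

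Vwf was at 25.4 to 40.0 CPM in LSK and 18.9 to 30.0 CPM in LK libraries, with a log2 fold change of 0.40 (SE 0.25, limma adjusted p = 0.217). Selp was at 11.6 to 45.8 CPM in LSK and 12.6 to 31.9 CPM in LK libraries, with a log2 fold change of 0.53 (SE 0.32, limma adjusted p = 0.214), which ran with a library left out from 0.20 without knockout LSK replicate 1 (limma adjusted p = 0.674) to 0.86 without knockout LSK replicate 2 (limma adjusted p = 0.0490), where it passed. The populations overlapped for both. All 4 LSK libraries were below all 4 LK libraries for 1 of 9 genes (Itga2b), against 16.7% of all genes, and above them for 1 of 9 (Gp9), against 11.3%. In WT libraries alone, limma called 1 of 9 genes (Itga2b, log2 fold change -1.60), against 23.9% of all genes. In knockout libraries alone it called 3 of 9 (Itga2b -1.35, Gp5 -1.36 and Pf4 -0.88), against 19.3%. The difference between these results corresponds to the interaction given above, which was fitted on the signal scaled within each population. None of the 9 genes was called for it, nor with the scaling over all libraries used here.

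**Figure D3:**
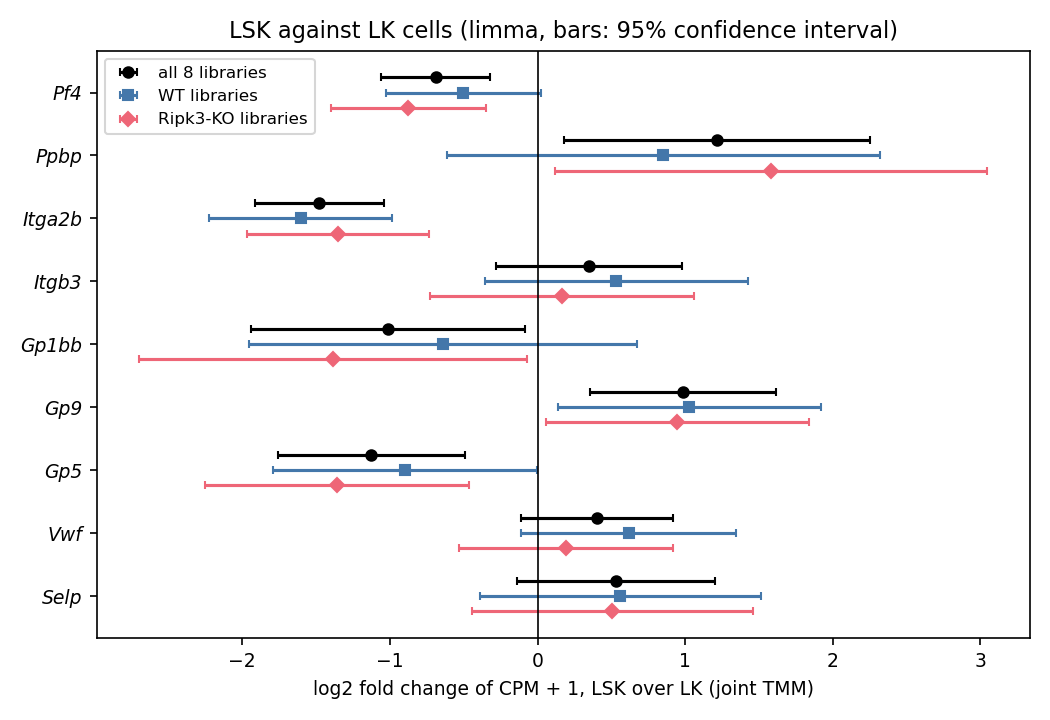
Log2 fold change of CPM + 1 (LSK over LK) for each gene over all 8 libraries, over the 4 WT and over the 4 Ripk3-/- (KO) libraries, with 95% confidence intervals from limma. Itga2b (-1.48), Gp5 (-1.13) and Pf4 (-0.69) lie to the left and Gp9 (0.99) to the right of 0 over all 8 libraries.

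Levels were compared between genes as CPM per kb of exons (GENCODE M21, GRCm38). In LSK cells Pf4 was at 104 ± 40.9 (SD, n = 4 libraries of both genotypes), Gp9 at 27.0 ± 5.45 and Itga2b at 6.46 ± 2.15 CPM per kb. Selp (6.37 ± 3.23), Gp5 (5.86 ± 3.00), Ppbp (4.38 ± 2.65), Itgb3 (3.50 ± 0.747), Gp1bb (2.59 ± 1.75) and Vwf (2.03 ± 0.372) followed, and neighbors in the order from Itga2b to Vwf do not differ beyond their SDs. In LK cells Pf4 was at 162 ± 21.3 CPM per kb, followed by Itga2b at 17.7 ± 1.29, Gp9 at 13.3 ± 4.60 and Gp5 at 12.5 ± 3.15. Next came Gp1bb (4.78 ± 1.09), Selp (4.17 ± 2.05), Itgb3 (2.78 ± 0.894), Vwf (1.53 ± 0.352) and Ppbp (1.18 ± 0.756 CPM per kb), and apart from the steps after Pf4, Gp5 and Itgb3 the neighbors in LK cells do not differ beyond their SDs. Pf4 was the highest of the 9 genes per length in both populations.

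By profile over the 8 libraries, the gene nearest to each of the 9 lay outside the group. By root mean square difference of log2(CPM + 1) centered on each gene's mean, the nearest gene outside the group was Ndufs5 for Pf4 (0.12), Sec24d for Itga2b (0.12), Sftpd for Gp9 (0.14), Prodh for Gp5 (0.20) and Xrcc3 for Gp1bb (0.22). It was AK014798 for Itgb3 (0.13), 1700021C14Rik for Vwf (0.10), Begain for Selp (0.18) and Podxl for Ppbp (0.30). Of 15756 other genes, the nearest one of the group itself ranked 144 for Gp1bb (Gp5), 414 for Itgb3 (Vwf), 488 for Selp (Vwf), 495 for Gp9 (Vwf) and 802 for Vwf (Itgb3). It ranked 1151 for Gp5 (Gp1bb), 1369 for Ppbp (Gp9), 2503 for Itga2b (Pf4) and 4415 for Pf4 (Gp5). Seen from Gp1bb, Gp5 was within the nearest 1% of genes, and no other gene of the group was within that share for any of the 9. These ranks take no account of counting error, which weighs most on genes with few reads such as Gp1bb and Ppbp. They are thus no result about whether the 9 genes vary together.

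Of 19 transcription factors of megakaryocyte development, 1 was called between genotypes in LSK cells and 0 in LK cells, against 2.16% and 0.473% of all genes. Gata1, the master factor of megakaryocytes and erythroid cells, gave a signal of 57.4 and 38.0 for WT LSK against 22.2 and 14.7 for knockout LSK cells, with no overlap. It fell by 1.32 on the log2 scale (SE 0.28, limma adjusted p = 0.0128), a call lost without WT LSK replicate 1 (adjusted p = 0.123) and without knockout LSK replicate 2 (adjusted p = 0.142), with adjusted p of 2.1e-04 to 0.142 over all alternatives. The median of the list was 0.32 in LSK and -0.05 in LK cells, beside -0.01 and 0.01 over all genes. Between populations 6 factors were higher in LSK cells and 2 lower, against 13.7% and 20.2% of all genes, with a median of 0.29 beside 0.07 over all genes. Mecom, a regulator of stem cell maintenance, was at 43.3 to 59.6 CPM in LSK and 1.44 to 6.89 CPM in LK libraries (log2 fold change 3.63), and the homeodomain factor Meis1 was higher by 1.73. Gata1 was at 12.8 to 50.4 CPM in LSK and 111 to 210 CPM in LK libraries (log2 fold change -2.47, limma adjusted p = 1.9e-09).

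Of 10 genes of thrombopoietin signaling, 0 were called between genotypes in LSK cells (median 0.12) and 1 in LK cells (median 0.22), against 2.16% and 0.473% of all genes. Socs3, a feedback inhibitor of cytokine receptors, gave a signal of 36.5 and 27.1 for WT LK against 11.3 and 13.6 for knockout LK cells, with no overlap, and fell by 1.28 on the log2 scale (SE 0.27, limma adjusted p = 0.0268). Its call was lost without WT LK replicate 1 (adjusted p = 0.620), knockout LK replicate 1 (0.451) or knockout LK replicate 2 (0.0789), the first being the highest over all alternatives. Between populations 4 genes of the list were higher in LSK cells and 1 lower, against 13.7% and 20.2% of all genes (list median 0.07). With quantile normalization the calls of Socs1, Thpo and Stat5b, the lower gene, were lost. The calls of Thpo and Stat5b were also lost with edgeR, with DESeq2, with the replicate block and without the filter.

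Of 22 other platelet receptors and adhesion proteins, 18 passed the filter in LSK and 17 in LK cells, and 1 was called between genotypes in each, against 2.16% and 0.473% of all genes. F2r, the thrombin receptor, gave a signal of 178 and 187 for WT LSK against 94.8 and 70.3 for knockout LSK cells, and fell by 1.15 on the log2 scale (SE 0.24, limma adjusted p = 0.0133). Esam, an adhesion molecule of platelets, endothelium and stem cells, gave 1.77 and 2.06 for WT LK against 7.23 and 9.31 for knockout LK cells, and rose by 1.66 (SE 0.36, limma adjusted p = 0.0364). Neither gene overlapped between genotypes. The F2r call was lost without WT LSK replicate 1 (adjusted p = 0.0799), WT LSK replicate 2 (0.111) or knockout LSK replicate 2 (0.151), and that of Esam without any 1 of the 4 LK libraries (0.0575 to 0.326), with highest adjusted p over all alternatives of 0.157 and 0.517. The list's median was 0.02 in LSK and 0.08 in LK cells. Between populations 7 of the 18 tested were higher in LSK cells and 3 lower, against 13.7% and 20.2% of all genes (list median 0.59), led by Esam (log2 fold change 4.40) and the thromboxane receptor Tbxa2r (3.49).

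Of 16 other granule and secreted proteins, 1 was called between genotypes in LSK cells (median -0.22) and 0 of the 14 tested in LK cells (median -0.05), against 2.16% and 0.473% of all genes. Vegfa, an angiogenic factor that platelets also store, gave a signal of 82.3 and 110 for WT LSK against 23.9 and 32.2 for knockout LSK cells, with no overlap, and fell by 1.74 on the log2 scale (SE 0.28, limma adjusted p = 0.00114). Without WT LSK replicate 2 its adjusted p was 0.0542, and over all alternatives it was at most 0.0570. Between populations 6 genes were higher in LSK cells and 3 lower, against 13.7% and 20.2% of all genes (list median 0.42). F13a1, the A chain of coagulation factor XIII, was at 21.3 to 39.6 CPM in LSK and 446 to 581 CPM in LK libraries (log2 fold change -4.18), whereas the granule protein Mmrn1 was at 58.2 to 69.6 and 3.02 to 15.9 CPM (log2 fold change 3.15).

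For Gata1, Socs3, F2r, Esam and Vegfa, the genotype difference in LSK minus that in LK cells was -0.67, 0.65, -1.30, -1.59 and -0.94. Limma called none of these 5 (adjusted p of 0.583, 0.577, 0.146, 0.277 and 0.433), nor did edgeR, while DESeq2 called F2r (adjusted p = 0.0406) and Esam (adjusted p = 0.00755). Of 23 cytoskeleton, granule assembly and signaling genes in the data, limma called 0 of the 21 tested between genotypes in LSK and 0 of the 20 tested in LK cells (medians 0.12 and 0.12), against 2.16% and 0.473% of all genes. Of 21 tested between populations, 9 were higher and 4 lower in LSK cells (median 0.43), against 13.7% and 20.2% of all genes. Of 18 stem cell genes, which include marks of aged or platelet-biased stem cells, limma called 0 of 18 between genotypes in LSK and 0 of the 15 tested in LK cells (medians 0.02 and 0.04), against 2.16% and 0.473% of all genes, and the LSK count was 0 to 2 over the alternatives. Between populations 12 of 18 were higher in LSK cells and 1 lower (median 1.54), against 13.7% and 20.2% of all genes, led by Procr (log2 fold change 5.35).

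**Figure D4:**
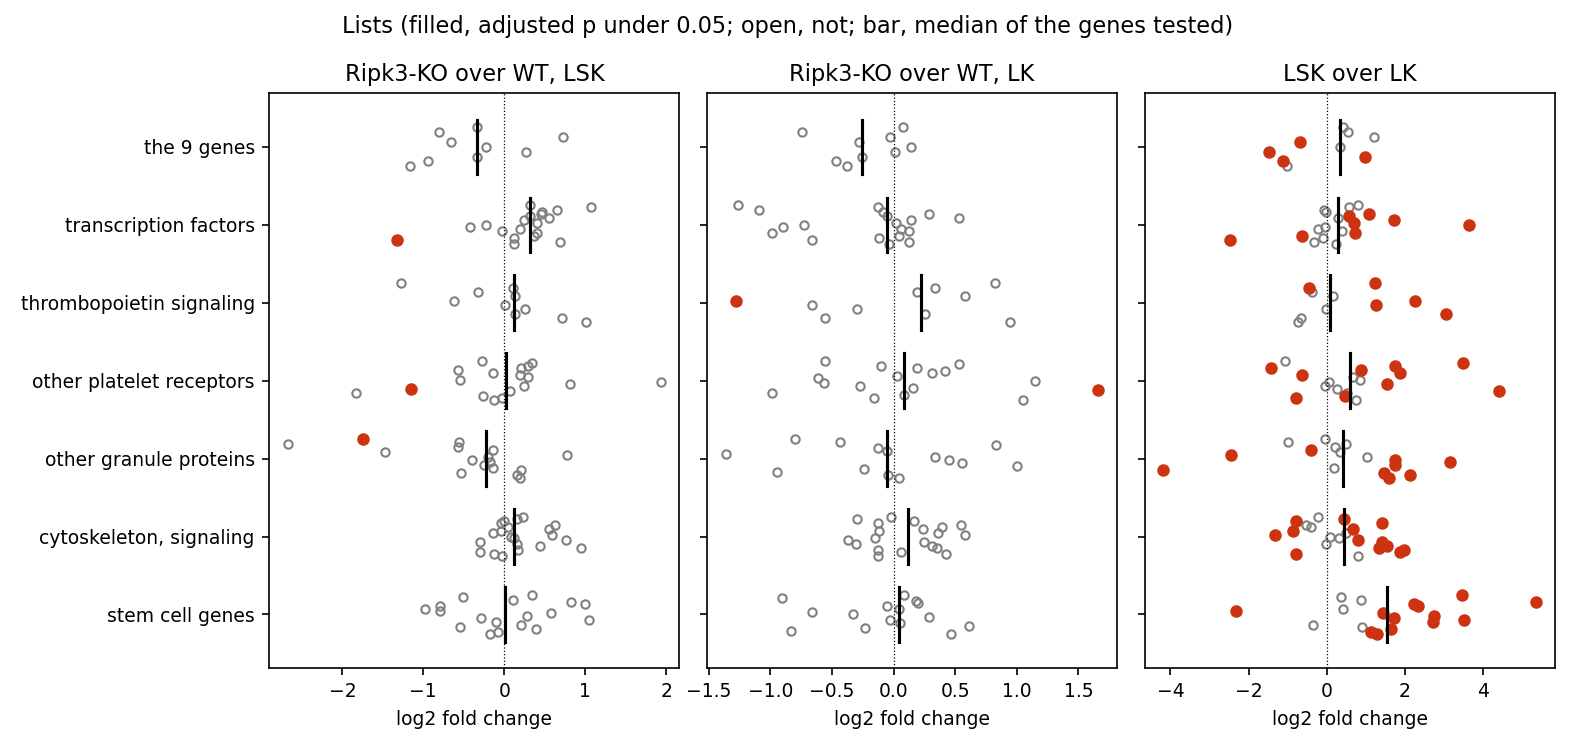
Log2 fold changes of the 9 genes and of 6 related lists for Ripk3-/- (KO) over WT in LSK cells, Ripk3-/- over WT in LK cells and LSK over LK cells (horizontal axes differ in range), with filled points for an adjusted p under 0.05 and a bar at the median of the genes tested. None of the 9 genes is filled in the genotype panels, where the filled points are Gata1, F2r and Vegfa in LSK cells and Socs3 and Esam in LK cells.

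Markers of other cell types were read beside these results. Of 13 neutrophil genes, limma called 7 higher in knockout LSK and 5 higher in knockout LK cells (Ltf log2 fold change 2.76 and 2.60), against 2.16% and 0.473% of all genes called in either direction, while 3 of the 13 had a log2 fold change below 0 in LSK and 4 in LK cells. Without the trend all 5 LK calls (limma adjusted p = 0.0556 for Ltf) and the LSK calls of Cd177, S100a8 and S100a9 were lost. In LK cells the Lcn2 call was lost without any 1 of the 4 libraries (limma adjusted p of 0.0504 to 0.668), and that of S100a9 without WT LK replicate 1 (0.115), knockout LK replicate 1 (0.193) or knockout LK replicate 2 (0.0581). In LSK cells the Cd177 call was lost with edgeR (adjusted p = 0.0725) and DESeq2 (adjusted p = 0.260) and without either knockout LSK library. The summed CPM of the list, of which Mpo was the most abundant gene, was 7326 and 8253 for WT LSK and 8334 and 7240 for knockout LSK cells, and 83599 and 72848 for WT LK and 58450 and 76825 for knockout LK cells. Of 8 mast cell and basophil genes tested, 2 fell in knockout LSK cells (Cma1 by 3.49 and Tpsb2 by 2.97 on the log2 scale) and 0 in LK cells, against the same shares of all genes. The knockout LSK libraries had 1 and 0 reads of Cma1 and 0 and 14 of Tpsb2, so that the size of these falls is uncertain. Over the alternatives the log2 fold change ran from -7.95 to -3.03 for Cma1 and from -4.86 to -2.34 for Tpsb2. Of the 8 in LSK cells 5 had a log2 fold change below 0, and the summed CPM of the list was 278 and 279 for WT LSK and 266 and 226 for knockout LSK cells. The Tpsb2 call was lost without WT LSK replicate 1 (adjusted p = 0.0763), WT LSK replicate 2 (0.109) or knockout LSK replicate 1 (0.166), with edgeR (0.327) and with DESeq2 (0.613, the highest over all alternatives). Of the erythroid list, 0 of 13 genes were called in LSK cells and 1 of 14 in LK cells (Car2, which fell by 0.73), again against these shares. The summed CPM of the list, of which Car2 made up 55.7% over all libraries, was 3662 and 3172 for WT LK and 2259 and 2365 for knockout LK cells. In LSK cells that sum was 1653 and 1497 for WT and 1648 and 1739 for knockout libraries. Of the 14 erythroid genes in LK cells, 10 had a log2 fold change below 0. The Car2 call was lost without WT LK replicate 1 (adjusted p = 0.443), knockout LK replicate 1 (0.304) or knockout LK replicate 2 (0.0863), and over all alternatives its adjusted p was at most 0.677. By limma the monocyte, endothelial, stromal, B cell and T cell lists had 0 genes called between genotypes in either population.

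Between populations, 9 of 13 erythroid genes were lower and 2 higher in LSK cells, 6 of 13 neutrophil genes were lower and 2 higher, 5 of 9 mast cell genes were lower and 2 higher, and 6 of 10 monocyte genes were lower and 2 higher, against 20.2% of all genes lower and 13.7% higher. Of 13 endothelial genes, 6 were higher in LSK cells and 2 (Plvap and Pecam1) lower, with a summed CPM of 382 to 489 in LSK and 190 to 264 in LK libraries. Egfl7 made up 38.2% of the list's CPM over all libraries. Cdh5, another gene of the list, was not called, with 0.783 to 3.05 CPM in LSK and 0.937 to 1.89 CPM in LK libraries. Endothelial cells also make Vwf and Selp. Of the stromal, B cell and T cell lists, 1 of 7, 2 of 7 and 3 of 8 genes were higher in LSK cells and 0 lower. The part of these other cells in the values of the 9 genes was not tested.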

How the data were processed

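Signal, as deposited by the authors, is headed FPKM, but all values (100%, tolerance 0.01) are whole multiples of a step per library: they are reads scaled as CPM over a TMM factor taken within LSK or LK. The submitters' processing notes name TopHat and mm9, and the labels a stranded mRNA kit. Dividing by the step recovered the reads. The design, written for FPKM, was kept. Members and lists were chosen with earlier results of these data known. Limma 3.58.1 (R 4.3.3, trend, two-sided) fitted 4 groups over 8 libraries to log2(signal + 1), for genes with a mean of at least 1, with Benjamini-Hochberg adjustment over all of them. LSK against LK used TMM factors over all libraries. Alternatives were edgeR 4.0.16 and DESeq2 1.42.0 on recovered reads, a pseudocount of 0.1, a minimum mean of 5 or none, quantile, median-centered and other TMM scaling, no trend, separate fits, 1 genotype alone, a replicate block and leaving out each library. Genes named are the 9 members, label checks, in each list those called with the largest change, some neutrophil genes whose call was lost, nearest profiles and the most abundant markers. Gp1ba, Cdh5, Plvap and Pecam1 were chosen after their values were seen. Positions are from GENCODE M21 (GRCm38). Some genes of the lists are counted but not reported here by name. The scripts were tested on simulated data.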

Additional observations from a re-analysis of the deposited data

Results flagged for a closer look

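None of the 9 megakaryocyte and platelet genes had a genotype difference that differed between LSK and LK cells by limma's interaction test, by which 2 of the genes reported beside them did. Ripk3 itself had a difference of -2.40 (LSK minus LK, limma adjusted p = 0.0343), with 42 and 11 reads in the knockout LSK and 255 and 171 in the knockout LK libraries. The neutrophil gene S100a8 had a difference of 1.23 (limma adjusted p = 0.0216), with a log2 fold change of 1.55 in LSK and 0.32 in LK cells. For both genes the call was lost when any library other than knockout LSK replicate 1 was left out, with adjusted p of 0.0568 to 0.342 for Ripk3 and 0.0520 to 0.163 for S100a8. Both calls were also lost without the filter (adjusted p of 0.328 and 0.325) and without the trend (0.257 and 0.348), that of Ripk3 with a pseudocount of 0.1 (0.0543) and that of S100a8 with edgeR (0.0530). The cause was not tested.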

How the results depend on the processing

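Between genotypes the count of called genes was 0 of 9 in LSK cells, in LK cells and for their difference under every alternative run, the replicate block among them. For LSK against LK it was 4, and 4 with the replicate block, 3 to 5 with a library left out and 1 with WT libraries only. Whether libraries of the same replicate number share mice is not settled here. Correlations of their deviations lay between -0.157 (knockout LSK and knockout LK) and 0.00833 (WT LSK and WT LK). With the numbers of the knockout LSK libraries crossed, chosen after seeing the data, the count was 4. Itga2b, Gp5, Pf4 and Gp9 kept their direction in all 21 alternatives, and Itga2b its call. The Pf4 call was lost with quantile normalization (-0.35), without the trend, with deposited scaling and with WT libraries only, the Gp5 call with the last 2, and the Gp9 call with libraries of either genotype alone. Deposited scaling brought calls of Vwf (0.76), Selp (0.88) and Ppbp (1.45), and quantile normalization and median-centered libraries a call of Gp1bb (-1.40 and -1.16). Deposited scaling moved the median of all genes from 0.07 to 0.39 and the share of calls higher in LSK from 40.4% to 72.5%, and median-centered libraries moved that share to 28.6%. For genotype in LSK the share higher in knockouts moved from 41.3% to 23.5% with median-centered libraries, and the median of all genes from -0.01 to -0.12, with -0.11 for the difference between populations. The calls over all genes were 363 in LSK (99 to 616 over alternatives), 66 in LK (3 to 170), 57 for the difference (2 to 154) and 5351 for LSK against LK (3036 to 5687).

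Some values changed sign, none of them called. With a library left out, which leaves 1 in its group, assumed to vary like the other groups, the log2 fold change between genotypes in LSK ran from -0.14 to 0.68 for Itga2b, -0.52 to 0.071 for Itgb3 and -0.26 to 1.70 for Ppbp, and in LK from -0.10 to 0.13 for Itga2b, -0.40 to 0.68 for Itgb3, -0.22 to 0.38 for Vwf, -0.73 to 0.22 for Gp9 and -0.31 to 0.51 for Ppbp. The difference between populations ran from -0.15 to 0.67 for Itga2b, -0.72 to 0.60 for Selp, -0.23 to 1.73 for Ppbp, -0.77 to 0.025 for Pf4, -0.56 to 0.39 for Gp9, -1.85 to 0.28 for Gp1bb and -0.90 to 0.17 for Itgb3. In LK, Ppbp was 0.086 with edgeR and 0.063 with DESeq2, and Itga2b -0.018 with median-centered libraries. The range of Ppbp in LK does not cover every library left out. Without WT LK replicate 1 or knockout LK replicate 2 its mean signal was below 1, and it was not tested. The Selp difference was 0.13 with edgeR and 0.12 with DESeq2. The cause was not tested.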
